A study of Homo sapiens with 5 samples.

Results

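Genes that encode enzymes adding or removing methyl groups on histone lysines were examined for occupancy by PHF8. A named list gave 44 of the 20162 protein-coding genes of the annotation. It was made up of 26 writers (methyltransferases and their close relatives) and 18 erasers (demethylases and their close relatives). The list does not hold every such gene, so the classes and families below cover listed genes only. Chromatin of SKMEL-147 cells, an established human melanoma line, was immunoprecipitated with an anti-PHF8 antibody and sequenced in 3 replicates, which the labels call A, B1 and B2. The series has 5 samples, of which 2 are inputs (chromatin sequenced without immunoprecipitation, A and B) that enter here only as the background of each peak. No treatment or genotype is given for these samples individually, nor whether the replicates came from separate cultures, so the spread between them may be technical. All replicates thus belong to 1 group, and the comparisons below are between genes and not between conditions.

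PHF8 is itself a histone lysine demethylase of the Jumonji C (JmjC) class. Its PHD finger binds histone H3 trimethylated on lysine 4 (H3K4), the mark of active promoters, and its catalytic domain removes methyl groups from H3 lysine 9 (H3K9) and H4 lysine 20 (H4K20). Most writers carry a SET domain, the exception on this list being DOT1L, whereas erasers are either flavin-dependent amine oxidases (KDM1A and KDM1B) or iron-dependent JmjC enzymes like PHF8.

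Peaks were called by the authors in each replicate against input, and a gene was counted as bound where a peak met the region 1 kb on either side of any of its annotated transcription start sites (TSSs) in all 3 replicates. The lists held 21506 (A), 20882 (B1) and 20120 (B2) peaks, with a median fold enrichment over background of 18.9, 11.8 and 11.8 at the summit, the highest point of a peak. The fragments stacked at the median summit came to 54, 39 and 40, which sets the counting precision of a single peak. Because the scale was higher in A, each gene was also given a percentile in each replicate: the rank, from 0 to 100, of the fold enrichment of its strongest promoter peak among the 12139 protein-coding genes bound in all 3 replicates. Percentiles are given as mean ± SD over the 3 replicates (n = 3), and coordinates are those of hg19.

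To show the DNA under the strongest and weakest of these promoters, 100 reference bases are printed for the highest-ranked and lowest-ranked bound gene of each side, for the unbound gene, and for the paralogs KMT2B and KMT2A, which were added after their values were seen. Each is the untranslated-region-free window nearest the summit in A, written 5′ to 3′ on the strand of the gene, with CpG dinucleotides in capitals. The windows hold the summit for KMT5B, KMT2B, KMT2A and KDM6B and lie inside the peak but beside the summit for JMJD1C. For SETDB1 and PRDM9 the windows are not contained in the strongest peak. The centre of the window lies 59 bp from the summit for JMJD1C, 271 bp for SETDB1 and 100 bp for PRDM9. They are JMJD1C at chr10:65281306-65281405 (minus strand), KMT5B at chr11:67981494-67981593 (minus strand), KMT2B at chr19:36208984-36209083 (plus strand), KMT2A at chr11:118307256-118307355 (plus strand), SETDB1 at chr1:150898639-150898738 (plus strand), KDM6B at chr17:7747119-7747218 (plus strand) and PRDM9 at chr5:23507164-23507263 (plus strand).
JMJD1C: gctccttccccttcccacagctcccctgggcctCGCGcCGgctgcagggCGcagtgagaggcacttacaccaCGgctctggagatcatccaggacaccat
KMT5B: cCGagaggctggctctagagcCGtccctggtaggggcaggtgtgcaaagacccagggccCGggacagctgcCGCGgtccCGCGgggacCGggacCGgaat
KMT2B: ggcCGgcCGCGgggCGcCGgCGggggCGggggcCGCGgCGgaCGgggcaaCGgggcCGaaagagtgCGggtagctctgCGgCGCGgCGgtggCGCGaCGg
KMT2A: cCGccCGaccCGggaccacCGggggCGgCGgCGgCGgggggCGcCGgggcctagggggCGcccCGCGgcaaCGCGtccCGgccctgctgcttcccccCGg
SETDB1: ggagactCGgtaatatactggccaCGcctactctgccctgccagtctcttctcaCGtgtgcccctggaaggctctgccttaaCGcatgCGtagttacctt
KDM6B: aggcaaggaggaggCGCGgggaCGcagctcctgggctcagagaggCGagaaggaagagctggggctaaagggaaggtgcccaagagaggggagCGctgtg
PRDM9: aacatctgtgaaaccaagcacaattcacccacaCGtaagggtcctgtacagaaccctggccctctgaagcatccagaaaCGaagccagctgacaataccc

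CpG dinucleotides were densest in the windows of KMT2B and KMT2A, with 21 and 17 in 100 bases, and these paralogs lay far apart in PHF8 enrichment. The window of JMJD1C, with the highest mean percentile, had 5 CpGs, as many as those of SETDB1 and KDM6B, with the lowest mean percentiles of their sides. The windows of JMJD1C and SETDB1 miss the summit, however. In the 101 bases around the summit in A, JMJD1C had 8 CpGs, and SETDB1 and KDM6B had 5 each. The window of the unbound PRDM9 had 2.

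PHF8 was found at the promoters of 43 of the 44 genes (97.7%), that is, 25 of 26 writers and all 18 erasers. Of all protein-coding genes, 60.2% met the same rule. The share in the genes most like them was higher: 42 of the 44 had a CpG-island-like TSS (in the 501 bases around it, a GC share of at least 0.5 and a CpG content of at least 0.6 of that expected), and 81.0% of protein-coding genes of that kind were bound, compared with all 42 of these. The listed genes also had more annotated TSSs, with a median of 12 against 5 for all protein-coding genes, and so more places where a peak could be counted. Among CpG-island-like genes with 10 or more TSSs, 90.9% were bound, as were all 27 listed genes of that kind. Read against this last value, the count of bound genes sets the list little apart.

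The exception was PRDM9, a meiotic H3K4 and H3K36 methyltransferase that places recombination hotspots in germ cells. It had a peak in A only, at chr5:23507240-23507423, with a fold enrichment of 4.83, 20 fragments at the summit and a width of 184 bp, and none in B1 or B2. Its TSS and that of KDM6B, the eraser with the weakest promoter peak, were the only ones on the list that were not CpG-island-like.

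Where the promoters were bound, the strength of the peaks was that of a typical to somewhat strong bound promoter. The median fold enrichment of the strongest promoter peak was 34.5 (A), 23.4 (B1) and 21.7 (B2), compared with 33.4 (A), 19.4 (B1) and 18.4 (B2) over all 12139 bound protein-coding genes. The median percentile was 52.7 (A), 66.4 (B1) and 64.3 (B2), or 61.1 ± 7.37. In each replicate the median thus lay above the middle of the bound genes, by little in A and by more in B1 and B2. The median of all bound CpG-island-like genes with 10 or more TSSs was 56.4 ± 0.390. Peaks at the listed genes were wider, with a median of 1054 (A), 999 (B1) and 999 (B2) bp, compared with 824 (A), 721 (B1) and 673 (B2) bp over all bound genes.

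The median promoter peak was stronger among erasers than among writers. The median fold enrichment of the 18 erasers was 39.7 (A), 28.8 (B1) and 25.3 (B2), whereas that of the 25 bound writers was 31.6 (A), 21.8 (B1) and 19.7 (B2). As percentiles, the erasers had medians of 65.7 (A), 83.5 (B1) and 77.6 (B2) (75.6 ± 9.03), and the writers of 45.5 (A), 60.2 (B1) and 56.2 (B2) (54.0 ± 7.60). Writers minus erasers came to -20.2 (A), -23.3 (B1) and -21.4 (B2) points, or -21.6 ± 1.54 (SD, n = 3). The difference had the same sign in every replicate and was larger than the spread between them. With 3 replicates a two-sided exact sign-flip test cannot give a p below 0.25, and the genes of a list are not replicates of each other, so no test was made. Both sides covered nearly the whole range: the bound writers ran from 13.8 ± 3.19 for SETDB1 to 93.7 ± 1.61 for KMT5B, and the erasers from 6.01 ± 0.779 for KDM6B to 95.8 ± 1.30 for JMJD1C.

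**Figure D1:**
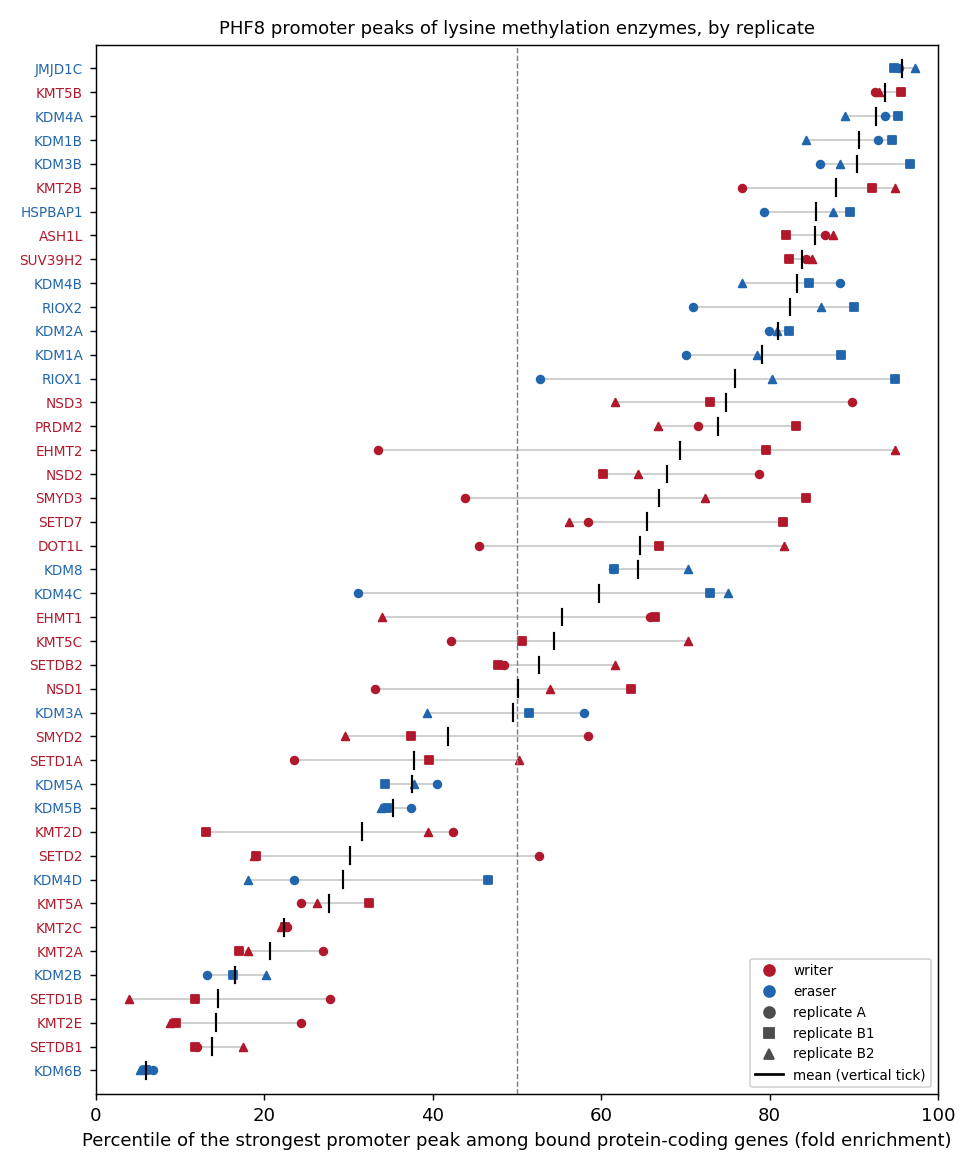
Percentile of the strongest PHF8 promoter peak by fold enrichment among the 12139 bound protein-coding genes (horizontal axis), for the 25 bound writers and the 18 erasers (rows, ordered by mean). Points mark replicates A, B1 and B2, and the genes run from KDM6B at 6.01 to JMJD1C at 95.8 with no gap that separates the sides.

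The comparison was also made apart for peaks that a listed gene shares with a neighbour. The strongest peak met the TSS region of another protein-coding gene at 14 of the 43 bound genes (32.6%), with 8 of them erasers (44.4%) and 6 writers (24%), compared with 29.6% of all bound genes. Over all bound protein-coding genes the median percentile was 59.8 where the peak was shared and 45.5 where it was not. Among listed genes with an unshared peak, the medians were 66.5 ± 6.52 for the 10 erasers and 54.4 ± 5.19 for the 19 writers, and writers minus erasers was -12.2 ± 8.87, against -21.6 with all genes. Among those with a shared peak, the medians were 83 ± 8.70 for the 8 erasers and 59.5 ± 16.1 for the 6 writers, so that erasers had the higher median in both sets. At a shared peak, which of the genes PHF8 occupies cannot be told apart.

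Above the 75th percentile of bound genes in all 3 replicates were 11 of the 43 (25.6%), namely 7 erasers (38.9%) and 4 writers (16%), whereas 15.3% of all bound genes met that rule. Below the 25th percentile in all 3 replicates were 5 (11.6%), 3 writers and 2 erasers, compared with 17.6% of all bound genes. Those 5 and the genes next to them in rank are described with their families below. Ranks were only partly resolved: of the 42 pairs of neighbours in the order of mean percentile, 39 differed by no more than the larger of their SDs, and the pairs that stood apart were JMJD1C and KMT5B, KMT5A and KMT2C, and SETDB1 and KDM6B. The median SD was 8.77 points. Across the 43 genes, which share each library, Spearman's rho of the fold enrichment was 0.806 for A and B1, 0.749 for A and B2 and 0.901 for B1 and B2.

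For the single genes that follow, values marked A, B1 and B2 are fold enrichments of the strongest promoter peak, and a value with its SD is the percentile. Among the writers, the H3K4 methyltransferases act on the residue whose trimethylated form the PHD finger of PHF8 binds, though not all of them trimethylate it. Apart from the KDM5 erasers, their median was the lowest of any class with more than 1 gene, at 37 ± 7.12 (8 of 9 bound). Highest among them was KMT2B, a methyltransferase of the MLL family, whose peak had a fold enrichment of 44.5 (A), 33.1 (B1) and 33.9 (B2) (87.9 ± 9.80). Its closest paralog KMT2A, the gene rearranged in mixed-lineage leukaemia, had 24.2 (A), 10.9 (B1) and 10.8 (B2) (20.7 ± 5.48). KMT2B was thus the higher of the pair in all 3 replicates, by 67.2 ± 15.2 points. The peaks in A were at chr19:36207219-36209551 and chr11:118307128-118307534.

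KMT2C and KMT2D, which monomethylate H3K4 at enhancers, had fold enrichments of 22.2, 12.6 and 11.8 and of 30.3, 9.83 and 15.9 in A, B1 and B2. SETD1A and SETD1B, the catalytic subunits of the complexes that trimethylate H3K4 at promoters, had 22.6, 16.7 and 18.4 and 24.5, 9.29 and 6.0, the peak of SETD1B being shared with RHOF. Neither pair kept its order in all 3 replicates, and their differences (9.27 ± 16.2 and 23.3 ± 25.6 points) did not exceed their spread. Taken as a set after their values were seen, the 6 genes KMT2A to KMT2D, SETD1A and SETD1B had a median percentile of 26.0 ± 5.64, and the other 19 bound writers of 60.2 ± 6.99. SETD7, which monomethylates H3K4 and several non-histone proteins, had 36.6 (A), 28.0 (B1) and 19.7 (B2) (65.4 ± 14.0). SMYD3, a methyltransferase reported to act on H3K4 and on cytoplasmic proteins, had 30.8 (A), 29.1 (B1) and 23.9 (B2) (66.8 ± 20.8). Its summit held 195, 123 and 129 fragments, which placed it at the 97.4th percentile by fragments, but its background in A was also high, at 5.36 fragments.

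The writers of the residues that PHF8 demethylates were set beside the other writers. The 9 H3K9 and H4K20 writers had a median percentile of 60.5 ± 10.5 and the 16 other bound writers of 48.9 ± 3.83. The difference was 3.83 (A), 16.5 (B1) and 14.7 (B2) points (11.7 ± 6.85), positive in each replicate and smallest in A. It was not particular to these residues. Among the other writers, those of H3K36 (62.7 ± 5.47) and DOT1L (64.7 ± 18.2) lay above 60.5. Those of H3K4 (37 ± 7.12) and KMT2E (14.2 ± 8.77) lay below it. The H4K20 writers alone had a median of 54.3 ± 14.4.

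Of the H3K9 writers, with a median of 64.8 ± 7.91, SUV39H2, which trimethylates H3K9 in constitutive heterochromatin, was highest, with 48.6 (A), 28.3 (B1) and 27.9 (B2) (83.9 ± 1.38). SETDB1, the H3K9 methyltransferase that silences retroelements together with KRAB zinc finger proteins, had the lowest mean percentile of the bound writers. Its values were 16.1 (A), 9.29 (B1) and 10.6 (B2) (13.8 ± 3.19, chr1:150898809-150899352 in A). KMT2E (14.2 ± 8.77) was lower in B1 (8.53) and B2 (7.89), and SETD1B (14.5 ± 12.2) in B2 (6.0), so their order was not resolved. SETDB2, the paralog of SETDB1, had 32.7 (A), 18.8 (B1) and 21.0 (B2) (52.6 ± 7.81), higher in all 3 replicates by 38.9 ± 4.62 points. However, the SETDB2 peak was shared with CAB39L. Its summit in A lay 235 bp from a TSS of CAB39L and 456 bp from the nearest TSS of SETDB2. A separate peak at the TSS of SETDB2 had 29.6 (A), 16.3 (B1) and 14.7 (B2). EHMT1 and EHMT2, the partners of the GLP and G9a complex that dimethylates H3K9, lay at 55.4 ± 18.6 and 69.3 ± 32.0. EHMT1 had 39.6 (A), 23.4 (B1) and 14.7 (B2). EHMT2 had the largest SD by fold enrichment of all listed genes, with 26.9 (A), 27.2 (B1) and 34.0 (B2), so that the pair could not be ordered. The peak of EHMT2 was shared with C2, and its background was 4.02 (A), 2.08 (B1) and 2.20 (B2) fragments. By fragments EHMT2 lay at the percentile 80.9 ± 9.54. PRDM2, a SET-domain tumour suppressor also known as RIZ, had 42.1 (A), 28.6 (B1) and 22.3 (B2) (73.8 ± 8.43).

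Of the H4K20 writers, KMT5B, which adds the second and the third methyl group, had the highest percentile of all writers, at 93.7 ± 1.61. The fold enrichment was 54.9 (A), 36.1 (B1) and 32.5 (B2), with 140, 105 and 98 fragments at the summit (chr11:67979891-67981932 in A, an unshared peak whose summit lay 225 bp upstream of the nearest TSS). The paralog KMT5C had 30.2 (A), 19.4 (B1) and 23.3 (B2) (54.3 ± 14.4), at a peak shared with AC020922.1, lower in all 3 replicates by 39.3 ± 14.7 points. KMT5A, the sole H4K20 monomethyltransferase, had 23.0 (A), 15.0 (B1) and 12.8 (B2) (27.7 ± 4.26). These values join 2 sites. The peak in B2 lay at an internal TSS, 4889 bp into the gene, and the peak near the first TSS had 11.2 in B2. The enzymes of a single residue thus lay far apart in the order.

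The H3K36 writers had a median of 62.7 ± 5.47. ASH1L, a dimethyltransferase of the Trithorax group, was the highest of them, with 50.1 (A), 28.1 (B1) and 29.2 (B2) (85.3 ± 2.98), at a peak shared with MSTO1. SETD2, the trimethylating enzyme that travels with elongating RNA polymerase II, had the lowest mean percentile by fold enrichment. It had 34.4 (A), 11.6 (B1) and 11.0 (B2) (30.2 ± 19.4), with a background of 1.91 (A), 4.25 (B1) and 4.44 (B2) fragments. By fragments it was not the lowest, at the percentile 47.1 ± 3.74, compared with 45.9 ± 14.4 for NSD1 and 40.2 ± 6.95 for SMYD2. NSD3, NSD2 and NSD1, which dimethylate H3K36, lay at 74.8 ± 14.2, 67.8 ± 9.76 and 50.2 ± 15.5. Their fold enrichments in A, B1 and B2 were 52.6, 25.2 and 21.0 for NSD3, 45.6, 21.8 and 21.7 for NSD2 and 26.8, 22.7 and 19.2 for NSD1. NSD3 exceeded NSD1 in all 3 replicates, by 24.6 ± 27.8 points, less than the spread of that difference. SMYD2, which also methylates p53, had 36.6 (A), 16.3 (B1) and 13.6 (B2) (41.8 ± 14.9), below SMYD3 in 2 of 3 replicates. DOT1L, the H3K79 methyltransferase, had 31.6 (A), 23.5 (B1) and 26.6 (B2) (64.7 ± 18.2), at a peak shared with AP3D1. KMT2E, a SET-domain protein without known methyltransferase activity that binds H3K4 trimethylation through a PHD finger, was among the lowest, at 23.0 (A), 8.53 (B1) and 7.89 (B2) (14.2 ± 8.77).

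**Figure D2:**
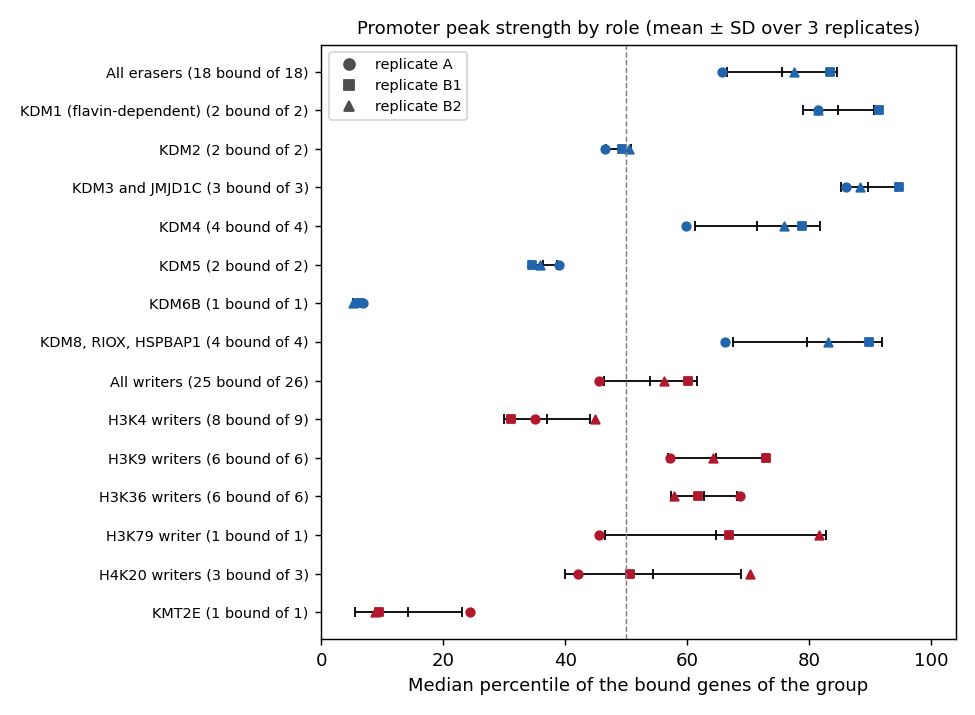
Median percentile of PHF8 promoter peaks by fold enrichment (horizontal axis) for each class of enzyme (rows), in replicates A, B1 and B2 (points), with bars for the mean ± SD and a dashed line at the middle of all bound genes. The KDM3 and KDM1 erasers lie highest, at means of 89.7 and 84.8, and KMT2E and KDM6B, each a class of 1 gene, lie lowest, at 14.2 and 6.01.

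Among the erasers, the KDM3 family, H3K9 demethylases that share a substrate with PHF8, had the highest median of all classes, at 89.7 ± 4.50. JMJD1C, a family member whose demethylase activity is disputed, led the whole list. Its peak (chr10:65280535-65282076 in A, shared with REEP3) had a fold enrichment of 58.2 (A), 35.3 (B1) and 36.5 (B2). At the summit were 162, 107 and 115 fragments. In A the summit lay 313 bp downstream of the TSS of JMJD1C, in an intron. It was nearer to a TSS of REEP3, at 136 (A), 148 (B1) and 138 (B2) bp. KDM3B had 49.8 (A), 37.7 (B1) and 29.6 (B2) (90.3 ± 5.58) and KDM3A 36.5 (A), 19.7 (B1) and 15.8 (B2) (49.6 ± 9.50), so that JMJD1C exceeded KDM3A in all 3 replicates, by 46.2 ± 10.6 points.

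The KDM4 family, which demethylates trimethylated H3K9 and, in most members, H3K36, had a median of 71.5 ± 10.3. KDM4A was highest, with 56.2 (A), 35.8 (B1) and 29.8 (B2) (92.6 ± 3.24) and 168, 187 and 161 fragments, at a peak shared with the protein-coding gene ENSG00000284989, followed by KDM4B with 51.4 (A), 29.3 (B1) and 25 (B2) (83.2 ± 5.96). KDM4C, amplified in some carcinomas, had 26.0 (A), 25.2 (B1) and 24.6 (B2) (59.7 ± 24.8). Its background was 3.35 (A), 1.93 (B1) and 2.04 (B2) fragments, and by fragments it lay at the percentile 62.0 ± 0.914. KDM4D, a shorter paralog without the PHD and Tudor domains of the others, was lowest, with 22.6 (A), 18.4 (B1) and 10.8 (B2) (29.4 ± 15.1), below KDM4A in every replicate by 63.2 ± 12.6 points. Even that peak had its summit 97 bp from a TSS of CWC15, a splicing factor gene, and the peak at the own TSS of KDM4D was weaker, at 16.4 (A), 9.55 (B1) and 5.59 (B2).

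The KDM1 enzymes, which remove mono- and dimethylation of H3K4, were both high. KDM1B, active in oocytes during imprinting, had 55.3 (A), 35.1 (B1) and 27.6 (B2) (90.6 ± 5.49), at a peak shared with TPMT. KDM1A, the LSD1 of the CoREST complex, had 41.5 (A), 31.0 (B1) and 25.6 (B2) (79 ± 9.22), at a peak shared with TEX46. The KDM5 enzymes, which remove trimethylation from the same residue, were both low by fold enrichment. KDM5A had 29.6 (A), 15.4 (B1) and 15.6 (B2) (37.5 ± 3.08, shared with CCDC77). KDM5B had 28.4 (A), 15.5 (B1) and 14.7 (B2) (35.3 ± 1.88). By that measure they differed by about the spread (2.25 ± 2.25 points). By fragments, KDM5B lay at the percentile 63.7 ± 3.03 and KDM5A at 38.1 ± 6.26. The background of KDM5B was 3.19 (A), 3.84 (B1) and 4.05 (B2) fragments, compared with 2.01, 2.17 and 2.67 for KDM5A.

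KDM2A and KDM2B, H3K36 demethylases that bind unmethylated CpGs through a CXXC zinc finger, were far apart. KDM2A had 46.2 (A), 28.3 (B1) and 26.3 (B2) (81.0 ± 1.22) and KDM2B, a recruiter of Polycomb repressive complexes, 16.8 (A), 10.7 (B1) and 11.5 (B2) (16.6 ± 3.53). The difference of 64.5 ± 3.33 points had the smallest spread of the wide paralog differences. KDM6B, the H3K27 demethylase also called JMJD3, had the lowest mean percentile of all bound genes on the list. Its values were 12.5 (A), 7.16 (B1) and 6.57 (B2), with only 31, 20 and 19 fragments at the summit (chr17:7746802-7747297 in A). In B2 the writer SETD1B was lower, at 6.0.

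The other JmjC oxygenases had a median of 79.7 ± 12.2. RIOX2 and RIOX1, which hydroxylate ribosomal proteins, lay at 82.4 ± 10.1 and 75.9 ± 21.4 and could not be ordered. RIOX2 had 41.9 (A), 31.8 (B1) and 28.4 (B2), and RIOX1, at a peak shared with HEATR4, 34.5 (A), 35.5 (B1) and 26.1 (B2). The background of RIOX1 was 4.02 (A), 2.55 (B1) and 3.55 (B2) fragments. By fragments RIOX2 and RIOX1 lay at the percentiles 95.5 ± 2.17 and 95.8 ± 0.886. KDM8, a JmjC protein with reported hydroxylase and peptidase activity, had 37.8 (A), 22.2 (B1) and 23.3 (B2) (64.4 ± 5.12). HSPBAP1, a JmjC protein that binds HSP27, had 45.9 (A), 31.5 (B1) and 29.2 (B2) (85.5 ± 5.44), but the summit of that peak lay, in A, 1385 bp upstream of its TSS and 132 bp from a TSS of SLC49A4. The separate peak at the TSS of HSPBAP1 had 41.3 (A), 26.1 (B1) and 23.3 (B2).

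Summits were reproducible in position. Over the 43 bound genes the distance between the outermost of the 3 summits had a median of 32 bp, was at most 50 bp at 31 genes and exceeded 100 bp at 8 (KMT2D, EHMT1, SUV39H2, PRDM2, KMT5A, KDM5A, KDM6B and KDM8). The summit lay downstream of the nearest TSS of the gene at 28 (A), 25 (B1) and 28 (B2) genes (65.1%, 58.1% and 65.1%), compared with 65.8%, 65.9% and 66.2% of all bound protein-coding genes. The side of the TSS thus did not set the list apart. For the erasers the shares were 77.8%, 72.2% and 72.2%, and for the writers 56%, 48% and 60%. Between 75 and 175 bp downstream of a TSS lay the summits of 22, 19 and 21 of the 43 genes. These shares, 51.2% (A), 44.2% (B1) and 48.8% (B2), were near the 44.6%, 42.4% and 43.3% of all bound protein-coding genes.

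**Figure D3:**
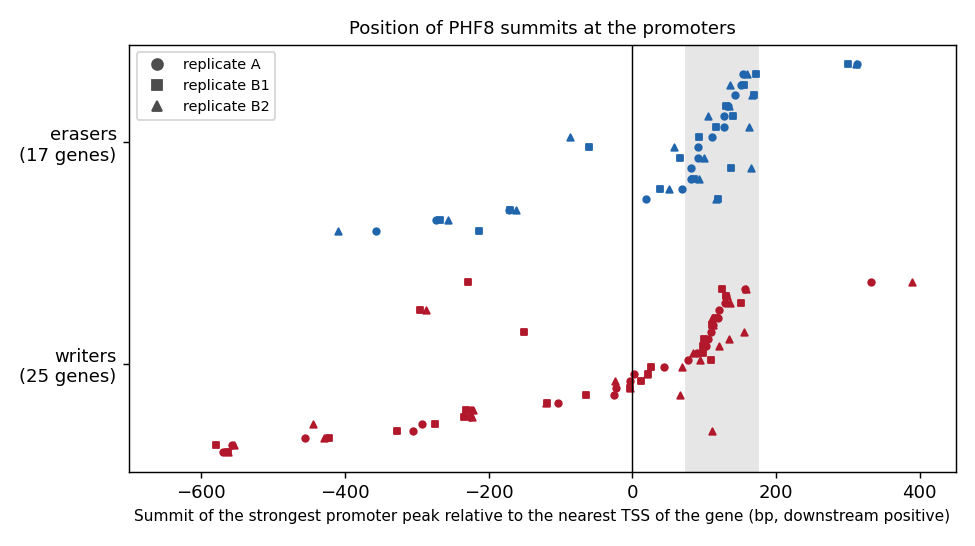
Distance of the strongest promoter summit from the nearest TSS of the gene (horizontal axis, bp, positive downstream) for bound writers and erasers in replicates A, B1 and B2, with the span from 75 to 175 bp downstream shaded. HSPBAP1, at 1385 bp upstream in A, is left out, and the shaded span holds 22 (A), 19 (B1) and 21 (B2) summits. These are 51.2%, 44.2% and 48.8% of the 43 genes, compared with 44.6%, 42.4% and 43.3% of all bound protein-coding genes.

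The 101 bases around each summit in A were searched on both strands for exact matches to a few promoter motifs. The GC box of the SP and KLF factors (GGGGCGGGG) was there at 3 of the 43 genes (KMT2B, KDM2B and KDM3A, 6.98%) and at 3.11% of all bound protein-coding genes. The letters of the ETS (CCGGAAG), YY1 (AAGATGGC), NRF1 (GCGCATGCG) and E2F (TTTCCCGC) motifs were at none of the 43, and at 2.19%, 0.288%, 0.0989% and 0.568% of all. These exact strings are rare in so short a window, and their lack says nothing of the factors.

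Many of the genes had several separate peaks, at 1 promoter or at more. At least 2 separate promoter peaks in every replicate were found at 21 of the 43 (48.8%), 11 writers (44%) and 10 erasers (55.6%), compared with 31.9% of all bound genes, which have fewer annotated TSSs. JMJD1C had, beside its leading peak, a weaker one at an alternative TSS 55982 bp into the gene in A, with fold enrichments of 18.5 (A), 14.4 (B1) and 12.7 (B2). At an internal TSS further on, 252753 bp into the gene in A, the values were 10.4, 4.82 and 6.81. In each replicate the peak was lower at each later one of these 3 starts.

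KDM6B showed another layout, with no dominant peak. It had 7 (A), 5 (B1) and 3 (B2) promoter peaks, and 4 more in each replicate inside the gene but over 1 kb from its TSSs. The highest of these in A, at 13.6, exceeded its promoter peak, as did the highest in B1 (8.53). The highest in B2 equalled the promoter peak at 6.57. These were different sites. The site with 13.6 in A had 4.50 in B1 and 5.91 in B2. Its summit in A lay 143 bp from a TSS of the long non-coding RNA ENSG00000288929. The site with 8.53 in B1 and 6.57 in B2 had 11.3 in A, below the promoter peak of 12.5. Another peak in A, at 12.0, lay 122 bp from a TSS of the long non-coding RNA ENSG00000288748. The low rank of KDM6B describes many small peaks, spread in A from 78 bp to 10925 bp downstream of its first TSS, and not a single weak one.

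KDM2B had its strongest PHF8 peak away from its annotated promoters. The peak, at chr12:121904347-121905741 in A, had a fold enrichment of 33.9 (A), 24.2 (B1) and 29.0 (B2), with 101, 73 and 91 fragments at the summit. That was above the promoter peak of KDM2B (16.8, 10.7 and 11.5) in every replicate. The summit in A lay in a non-coding exon, 2809 bp downstream of the nearest annotated TSS of KDM2B and 47846 bp from the nearest TSS of another gene, RNF34. In B1 and B2 the region was called as a pair of peaks, the second with 15.1 and 18.7.

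**Figure D4:**
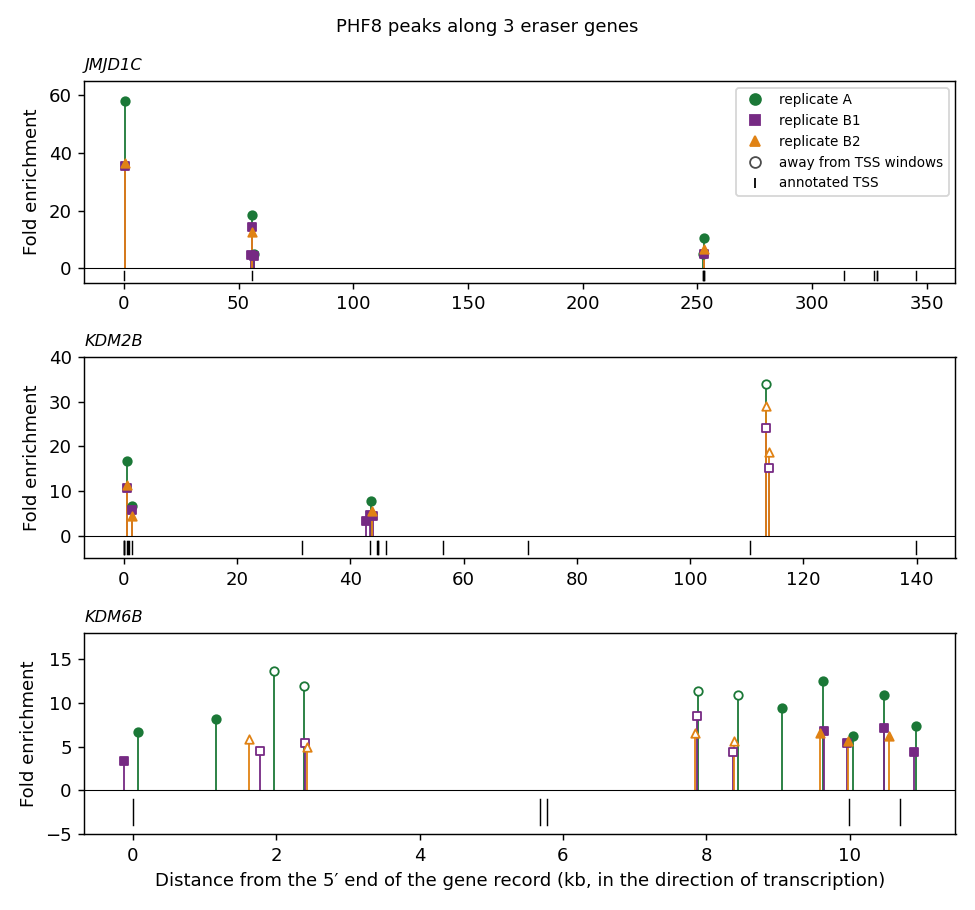
Fold enrichment of each PHF8 peak (vertical axis) against its summit's distance from the first TSS of the gene (horizontal axis, kb, positive downstream) in JMJD1C, KDM2B and KDM6B, for replicates A, B1 and B2, with ticks at annotated TSSs and open markers for peaks over 1 kb from any. The open markers of KDM2B, at 33.9, 24.2 and 29.0, stand above its promoter peaks, JMJD1C is led by its first promoter, and KDM6B holds many low peaks.

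Related genes outside the list gave a frame for these values. Partner subunits of the same complexes were bound at 18 of 19 genes (not RCOR2), with a median percentile of 60.8 ± 3.76, close to the 61.1 ± 7.37 of the enzymes. Arginine methyltransferases were bound at 8 of 9 (not PRMT8, which is brain-specific), at 65.8 ± 3.06, and other SET or JmjC domain genes at 14 of 16 (not HR or the muscle gene SMYD1), at 72.6 ± 4.06. Histone acetyltransferases were bound at 11 of 11 (63.5 ± 7.37), and histone deacetylases at 15 of 15, with the lowest median, 41.6 ± 3.75. High occupancy was thus not particular to the lysine methylation enzymes.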

How the data were processed

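ChIP-seq of PHF8 in SKMEL-147 cells was analysed from 3 peak lists. Per the labels and the methods of the study, the authors mapped reads to hg19 (Bowtie2, default settings) and called narrow peaks in each replicate on its own with MACS, using input as control. The submitters' processing notes also name bcl2fastq and Picard. Versions, read totals and the handling of duplicates are not given in the sources used here. The lists deposited by the authors give the fold enrichment at the summit, a linear ratio over local background, the p-value and q-value as −log10 values, and a score that was not used. All listed peaks passed a fold enrichment of 1.5 and a q-value of 0.05. The direction of the q cutoff in the methods was read as below.

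Peaks were overlapped with 1 kb on either side of the 221291 gene and TSS pairs of GENCODE v44lift37 (64440 genes, without the mitochondrial genome and the Y copies of the pseudoautosomal genes). All 44 symbols matched. Percentiles were computed within each replicate. Fragments at summits were recovered from fold enrichment and p-value as whole numbers (100% within 0.001 in −log10 p). Intervals for counting error were not computed. Python 3.11.15, NumPy 2.4.6, SciPy 1.17.1 and matplotlib 3.10.9 were used, and the steps were tested on simulated data.

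The enzymes, their classes and the comparison lists were chosen with earlier results of these data known, so no p-value was given over them. All 44 enzymes are named, with each replicate's value for the 3 highest and 3 lowest bound of each side and for paralogs. From other lists only unbound genes are named. Alternatives covered cutoffs, TSS definitions, the ranking measure and each replicate left out.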

Additional observations from a re-analysis of the deposited data

How the results depend on the processing

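The counts of bound genes ranged from 38 to 43 over the alternatives. With a fold enrichment above 10, 38 were bound (21 writers, 17 erasers), without KMT2D, SETD1B, SETDB1, KMT2E and KDM6B. Of all protein-coding genes, 49.6% then met the rule. With the 5′ end of each gene as its single TSS, 38 were bound (22 writers, 16 erasers), without SETD7, NSD1, KMT2E, KDM4C and KDM6B. The share of all protein-coding genes was then 54.0%. PRDM9 was bound under none. The median percentile of the list stayed between 57.0 and 65.4.

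Writers minus erasers was negative under each of 17 alternatives. It was -19.5 with a window of 500 bp, -23.3 with 2 kb, -19.4 with the summit required inside the window, -29.1 with the 5′ end only, -17.2 with TSSs of protein-coding transcripts, -23.9 ranked by −log10 q and -24.0 ranked by fragments. In alternatives added after the data were seen, it was -18.4 with percentiles within a chromosome and -12.2 without shared peaks. Leaving out each replicate gave -22.3 to -20.7. The H3K9 and H4K20 writers minus the other writers was positive throughout, at 19.6 by −log10 q, 19.0 by fragments, 19.9 ± 17.9 without shared peaks, 6.42 at its lowest (5′ end only) and 9.20 to 15.6 with a replicate left out. The share of summits downstream was 75.4% with the 5′ end only and 61.6% to 65.1% with a replicate left out. The causes of these shifts were not tested.

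No paired analysis was possible because the replicates belong to 1 group and no peak lists of a second group were compared. The counts of 8 to 10 fragments behind the weakest peaks limit what a missing peak shows at this depth.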

Other observations

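KMT2E held several PHF8 peaks beside its weak promoter peak, and the strongest of them lay at starts of the long non-coding RNA LINC01004, which lies within the annotated extent of KMT2E. A peak with its summit 89 bp from a TSS of LINC01004 in A had a fold enrichment of 26.9 (A), 16.4 (B1) and 13.1 (B2). The values of the KMT2E promoter peak itself were 23.0, 8.53 and 7.89, with its summit in A 9 bp from a TSS of KMT2E-AS1. A further peak at another start of LINC01004 had 17.4, 15.7 and 14.1. In KMT2D a peak away from its own TSSs was called in B2 only, with a fold enrichment of 11.5, and its summit lay 151 bp from a TSS of DDN-AS1.

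Peaks over 1 kb from every TSS of the listed genes were few, with 8 (A), 10 (B1) and 11 (B2). They lay in 3 genes in A and B1 (KDM2B, KDM6B and KMT2E) and in 4 in B2, where KMT2D was the addition. Against 84, 81 and 80 promoter peaks, PHF8 in the listed genes was thus counted mostly at annotated starts.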
